A study of Mus musculus with 6 samples.

Results

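Aminoacyl-tRNA synthetases are the enzymes that join each amino acid to its tRNA. Their genes were taken from the count table by name: protein-coding genes whose symbol is a letter followed by ars, with or without a final 1 or 2, together with Eprs, Farsa, Farsb, Aimp1 and Aimp2. This gave 39 of the 54532 genes in the table, of which 20 encode cytosolic enzymes or their subunits, 17 encode mitochondrial enzymes (symbols ending in ars2) and 2, Aimp1 and Aimp2, encode scaffold proteins without synthetase activity. All 39 passed the filter on low counts. The naming rule used no measured value, but it was chosen with earlier results of these data known.

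Charging proceeds by activation of the amino acid with ATP and its transfer to the end of the tRNA, and it supplies the ribosomes of the cytosol and of the mitochondria through largely separate sets of enzymes, all encoded in the nucleus. Synthetases fall into class I and class II, which have unrelated catalytic folds. In mammals several cytosolic enzymes are held together by scaffold proteins in the multi-synthetase complex, while the others are free or bound to elongation factors. Uncharged tRNA activates the kinase Gcn2 (gene Eif2ak4), and the transcription factor Atf4, translated when initiation factor 2 alpha is phosphorylated, binds near many cytosolic synthetase genes.

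RNA was sequenced from cultures of wild-type male mouse cells from the aorta, named endothelial cells by the labels. Each of 3 cell isolations gave 1 culture kept for 8 h in starvation medium (Vehicle, 3 libraries) and 1 that received lipopolysaccharide (LPS), a cell wall component of Gram-negative bacteria, at 500 ng/mL for 8 h (LPS, 3 libraries). The comparison asks how the genes respond to LPS. How many animals an isolation pooled is not stated.

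The libraries held 16509197 to 25082714 counts, and a count of 0 allows 3 counts, or 0.120 to 0.182 CPM before scaling, for counting error only. CPM are counts relative to the size of the library, here scaled by TMM, and SDs are between the 3 libraries of a group. A gene was called when its adjusted p in edgeR's quasi-likelihood test was below 0.05. Of 12 endothelial markers, 3 had enough counts to be tested, Cldn5 was at 0 in every library, Pecam1 had at most 0.730 CPM and Cdh5 at most 0.0944 CPM. The 12 markers summed to 11.2 to 13.5 CPM in Vehicle and 10.5 to 13.3 CPM under LPS. The 6 fibroblast markers summed to 6217 to 7424 CPM in Vehicle and 3951 to 5510 CPM under LPS, the 7 smooth muscle markers to 415 to 433 and 464 to 583 CPM, and the 6 macrophage markers to 5.36 to 6.18 and 5.90 to 7.63 CPM, with Ptprc and Adgre1 at 0 in every library. The fibroblast markers moved both ways, with log2 fold changes from −0.91 to 0.57. Their median was −0.44, and −0.05 when an offset fitted to transcript length was added per library (the length offset). In bulk RNA, fewer cells of a kind and less RNA per cell cannot be told apart, and the part of these marker shifts in the results below was not tested.

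Most cytosolic synthetase genes had higher RNA levels under LPS, by modest amounts. Of 20, 13 were called higher, 1 was called lower and 6 were not called, against 24.9% of the 14508 tested genes called higher and 24.4% called lower (49.3% in either direction). Their median log2 fold change was 0.33, with a range from −0.39 to 0.64, against −0.00306 for all tested genes. The libraries of the groups did not overlap for 17 of the 20, against 61.9% of all tested genes. Among tested genes whose longest transcript has 2000 to 5000 bases, the range of most members, 20.8% were called higher and 18.2% lower.

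**Figure D1:**
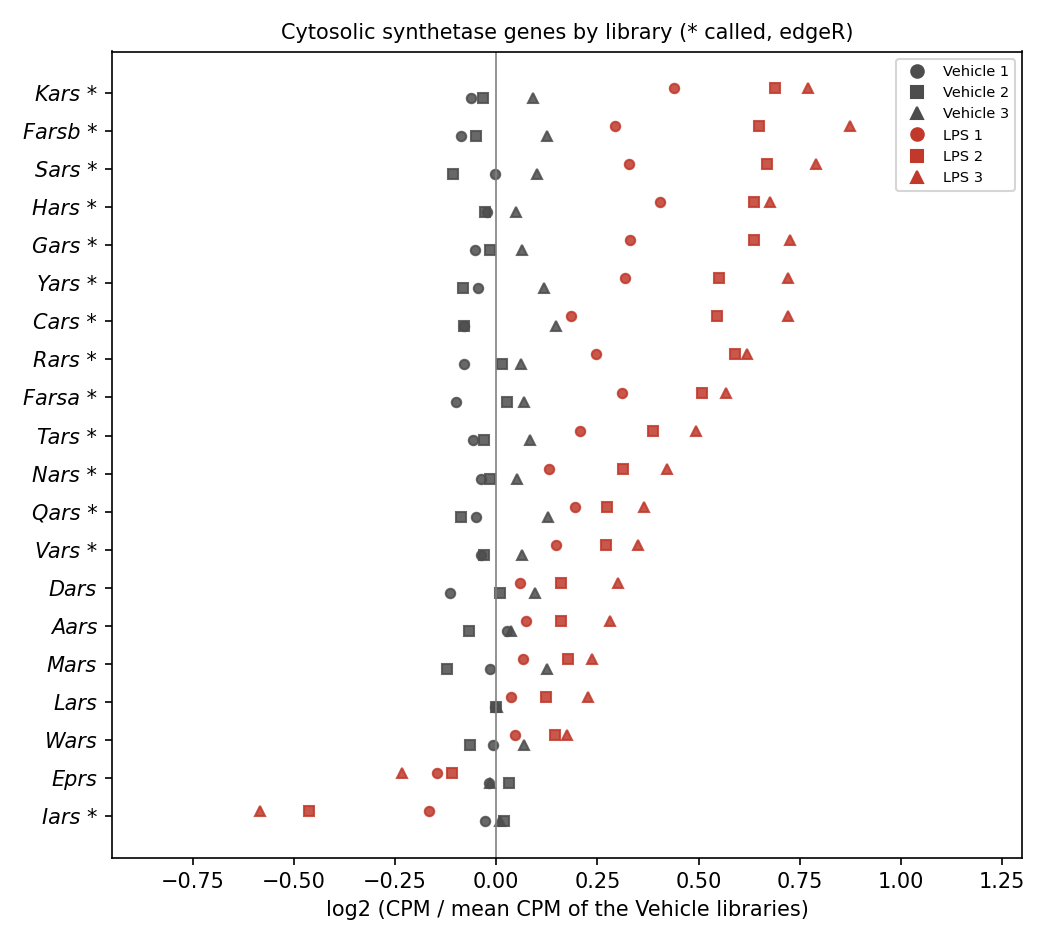
Level of each cytosolic synthetase gene in each library, as the log2 of its CPM over the mean of the Vehicle libraries (horizontal axis). Grey points are Vehicle and red points LPS, shapes stand for isolations 1 to 3, and a star marks genes called by edgeR. The LPS points of the 13 genes called higher lie to the right of every Vehicle point, with LPS 1 nearest to Vehicle, and those of Iars lie to the left.

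Without the length offset, the largest fold change among the cytosolic enzymes was that of Kars, the lysyl-tRNA synthetase gene. Its transcripts in mammals encode both the cytosolic and the mitochondrial enzyme (ENSMUSG00000031948, GRCm38 chromosome 8, 111993443 to 112011323). Kars had 189, 193 and 211 CPM in Vehicle 1 to 3 and 268, 319 and 337 CPM in LPS 1 to 3. The 3 LPS values lay above the 3 Vehicle values. The mean rose from 198 ± 11.4 to 308 ± 35.7 CPM, a log2 change of 0.64 (SE 0.104, edgeR adjusted p = 0.00158). Gars, which likewise serves both compartments with glycyl-tRNA, was the most abundant member in CPM (ENSMUSG00000029777, chromosome 6, 55038007 to 55079500). It had 315, 323 and 341 CPM in Vehicle and 411, 508 and 540 CPM under LPS, again without overlap. Its log2 fold change was 0.57 (SE 0.111, edgeR adjusted p = 0.00285).

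Both subunits of the cytosolic phenylalanyl-tRNA synthetase, a tetramer of alpha and beta chains, rose. Farsb, the beta chain, had 79.8, 81.9 and 92.5 CPM in Vehicle and 104, 133 and 155 CPM under LPS, and Farsa, the alpha chain, went from 63.8 ± 3.80 to 88.1 ± 8.06 CPM. Their log2 fold changes were 0.62 (SE 0.138) and 0.47 (SE 0.0973), with edgeR adjusted p = 0.00513 and 0.00393. The groups did not overlap for either chain, and the difference between the chains was not tested.

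The seryl, histidyl and tyrosyl enzymes also rose. Sars had 133, 124 and 143 CPM in Vehicle and 167, 212 and 230 CPM under LPS. Hars had 110, 110 and 116 CPM in Vehicle and 148, 174 and 179 CPM under LPS, and Yars 91.7, 89.4 and 103 CPM against 118, 138 and 156 CPM. In each of these genes every LPS library was above every Vehicle library. The log2 fold changes were 0.61 for Sars (SE 0.122, adjusted p = 0.00331), 0.58 for Hars (SE 0.0933, adjusted p = 0.00156) and 0.54 for Yars (SE 0.113, adjusted p = 0.00401). Yars encodes an enzyme whose fragments can act as cytokines outside the cell.

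Cars (cysteine) and Rars (arginine) rose by about the same log2 amount without the length offset, but by 0.50 and 0.27 with it. Cars had 55.0, 55.0 and 64.3 CPM in Vehicle and 66.0, 84.8 and 95.8 CPM under LPS, with LPS 1 just above the highest Vehicle library. Rars had 122, 130 and 134 CPM in Vehicle and 153, 194 and 198 CPM under LPS. The log2 fold changes were 0.50 (SE 0.137, edgeR adjusted p = 0.0136) and 0.49 (SE 0.110, adjusted p = 0.00514). The call of Cars ended without Vehicle 1, without Vehicle 2 or without LPS 2, with adjusted p up to 0.0646, while that of Rars held without any 1 library.

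Tars, Nars, Qars and Vars, which charge threonine, asparagine, glutamine and valine, rose least among the called enzymes without the length offset. With it their log2 fold changes were 0.53, 0.21, 0.25 and 0.43. Tars went from 162, 165 and 179 to 195, 221 and 238 CPM, Nars from 216, 219 and 230 to 242, 275 and 297 CPM, Qars from 113, 110 and 128 to 134, 141 and 150 CPM, and Vars from 171, 172 and 184 to 195, 212 and 224 CPM in libraries 1 to 3 of each group. The groups did not overlap in any of these 4 genes. Their log2 fold changes were 0.37, 0.29, 0.28 and 0.26, with edgeR adjusted p = 0.0111, 0.0277, 0.0291 and 0.0316. The call of Tars ended without Vehicle 1 or Vehicle 2 (adjusted p up to 0.0587). That of Qars ended without any of Vehicle 1, Vehicle 2, LPS 2 and LPS 3 (up to 0.140), and those of Nars and Vars without any library but LPS 1 (up to 0.105 and 0.129).

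Iars, the isoleucyl-tRNA synthetase gene, was the cytosolic member called lower (ENSMUSG00000037851, chromosome 13, 49682100 to 49734267). It had 169, 175 and 174 CPM in Vehicle and 154, 125 and 115 CPM under LPS, with no overlap. The mean fell from 173 ± 2.83 to 132 ± 20.1 CPM, a log2 change of −0.39 (SE 0.110, edgeR adjusted p = 0.0149). The call ended without Vehicle 2 or LPS 2 (adjusted p up to 0.0725) and when an offset fitted to transcript length was added per library (−0.17, adjusted p = 0.118).

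The 6 cytosolic genes without a call were Dars, Aars, Mars, Lars, Wars and Eprs. Dars (aspartate) had a log2 change of 0.18 (SE 0.0952), Aars (alanine) of 0.17 (SE 0.0862), Mars (methionine) of 0.16 (SE 0.0944), Lars (leucine) of 0.13 (SE 0.0821) and Wars of 0.12 (SE 0.0822). For Wars, which charges tryptophan and is known as an interferon-gamma-induced gene, the libraries overlapped, at 104, 99.7 and 109 CPM in Vehicle and 108, 115 and 118 CPM under LPS (adjusted p = 0.239). The 95% interval of its log2 fold change ran from −0.04 to 0.28. Eprs, a single protein that charges both glutamate and proline, had 276, 286 and 276 CPM in Vehicle and 252, 259 and 238 CPM under LPS. Its LPS libraries were all below its Vehicle libraries, with a log2 change of −0.16 (SE 0.0802, adjusted p = 0.120). Under the length offset Eprs was called higher instead (0.26, adjusted p = 0.0251), so its direction depended on that setting.

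Each isolation gave 1 library per treatment, so differences between isolations in the response cannot be told from variation between libraries. In 18 of the 20 cytosolic genes the smallest difference between LPS and Vehicle was that of isolation 1, and LPS 1 was the lowest LPS library in each of the 13 genes called higher. The exceptions were Qars, with the smallest difference in isolation 3, and Dars, in isolation 2. The smallest difference was that of isolation 1 in 61.7% of all tested genes and 79.2% of all called genes. How often LPS 1 was the lowest LPS library among them was not counted. In the model with isolation and treatment, no member was called for a difference in level between isolations (smallest adjusted p = 0.540). Of all tested genes 1 was called. That model does not test the size of the response. With isolation as a replicate block, edgeR called the same 13 cytosolic genes higher and Iars lower, against 25.5% of all tested genes higher, 25.5% lower and 51% in either direction. Without LPS 1, edgeR called 16 cytosolic genes and 4362 of all tested genes higher. Without isolation 2 it called 0 cytosolic genes and only 8 of all tested genes. In that case 8 cytosolic genes had an unadjusted p below 0.05 and DESeq2 called 5.

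Grouping the cytosolic genes by the place of their protein, chosen after the values were seen, gave these counts. Of the 12 enzymes or subunits outside the multi-synthetase complex, 10 were called higher and none lower, with a median log2 fold change of 0.48 and a range from 0.12 to 0.62. The shares of all tested genes were 24.9% and 24.4%. Of the 8 in the complex (Eprs, Iars, Lars, Mars, Qars, Rars, Kars and Dars), 3 were called higher, Kars, Rars and Qars, and Iars lower, with a median of 0.17. Summed over genes, the free enzymes stood at 1645, 1643 and 1777 CPM in Vehicle 1 to 3 and 1986, 2326 and 2504 CPM in LPS 1 to 3, and those of the complex at 1179, 1210 and 1261 and at 1294, 1395 and 1423 CPM. The ratio of LPS to Vehicle means was 1.35 for the free enzymes and 1.13 for those of the complex. Under the length offset 10 of the 12 and 5 of the 8 were called higher, against 21.8% of all tested genes. By class, 8 of the 10 class II genes and 5 of the 9 class I genes were called higher, apart from Eprs, which holds both catalytic domains. These counts describe small groups that were not tested against each other.

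Both scaffold genes rose. Aimp1 encodes the scaffold that is also the precursor of the cytokine EMAP II (ENSMUSG00000028029, chromosome 3, 132660499 to 132684370). It had 53.4, 58.2 and 55.0 CPM in Vehicle and 94.6, 105 and 122 CPM under LPS. The lowest LPS value was well above the highest Vehicle value. The mean rose from 55.5 ± 2.44 to 107 ± 14 CPM, 1.93-fold, or 0.95 on the log2 scale (SE 0.107, edgeR adjusted p = 0.00109), the largest fold change of all 39 members. Under the length offset it was 1.09 (adjusted p = 0.000587). Aimp2, the core scaffold of the complex, had 27.2, 33 and 34.4 CPM in Vehicle and 44.4, 53.1 and 54.0 CPM under LPS. Its log2 fold change was 0.68 (SE 0.123, adjusted p = 0.00223), but 0.23 and without a call with the length offset (adjusted p = 0.0966); its longest transcript has 1185 bases. Eef1e1, also called AIMP3, the remaining scaffold protein, rose from 39.8 ± 7.04 to 64.4 ± 11 CPM (log2 fold change 0.69, adjusted p = 0.00562; 0.56 with the length offset). Of the 50-base words in Aimp2 transcripts, 26.7% also occur in transcripts of other genes, nearly all in its neighbour Eif2ak1. Eif2ak1 had 56.0 ± 1.49 and 56.3 ± 3.36 CPM.

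**Figure D2:**
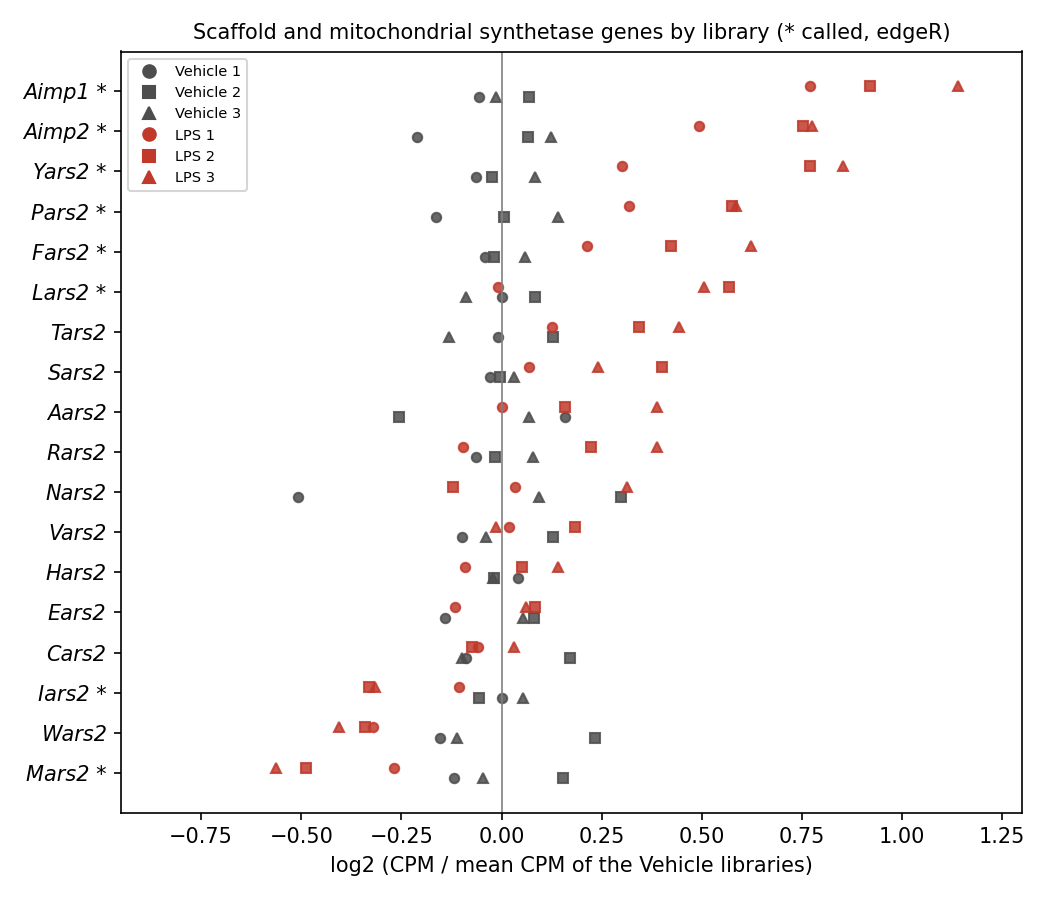
Level of the scaffold genes Aimp1 and Aimp2 and of 16 mitochondrial synthetase genes in each library, as the log2 of CPM over the mean of the Vehicle libraries (horizontal axis), with colours, shapes and stars as for the cytosolic genes. The LPS points of Aimp1, Aimp2, Yars2, Pars2, Fars2 and Sars2 lie to the right of every Vehicle point, those of Sars2 only just. Those of Iars2, Wars2 and Mars2 lie to the left, and in the other mitochondrial genes the groups overlap.

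Of the 17 mitochondrial synthetase genes, 4 were called higher, 2 lower and 11 were not called. The share called higher, 23.5%, was near the background of 24.9%, and that called lower, 11.8%, was below the 24.4% of all tested genes. The median log2 fold change was 0.18, with a range from −0.43 to 0.66. Groups did not overlap for 7 of the 17, against 61.9% of all tested genes. Most of these genes are scarce, and the counts of those described here per library ran from 80 for Pars2 to 6483 for Lars2.

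Yars2, the mitochondrial tyrosyl-tRNA synthetase gene, rose most (ENSMUSG00000022792, chromosome 16, 16302965 to 16309640). It had 21.8, 22.4 and 24.1 CPM in Vehicle and 28.0, 38.8 and 41.1 CPM under LPS, with no overlap. The log2 fold change was 0.66 (SE 0.146, edgeR adjusted p = 0.00514), or 0.58 with the length offset. It was the only mitochondrial gene whose call held without each of the 6 libraries in turn. Its cytosolic counterpart Yars rose by 0.54.

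Fars2 (phenylalanine) had 10.8, 11 and 11.6 CPM in Vehicle and 12.9, 14.9 and 17.2 CPM under LPS (log2 fold change 0.43, SE 0.140, adjusted p = 0.0293). Pars2 (proline) had 4.49, 5.06 and 5.55 CPM against 6.28, 7.50 and 7.56 CPM (0.49, SE 0.171, adjusted p = 0.0374). Neither gene's groups overlapped. The calls of both ended without any 1 library other than LPS 1, with adjusted p up to 0.101 for Fars2 and 0.125 for Pars2. Pars2 also had no call with the length offset (adjusted p = 0.0554) or in DESeq2 (0.0732).

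Lars2, the mitochondrial leucyl-tRNA synthetase gene, stood apart by its level. It had 230, 244 and 216 CPM in Vehicle and 229, 341 and 327 CPM under LPS, so that LPS 1 lay within the Vehicle range. The log2 fold change was 0.38 (SE 0.142), with adjusted p = 0.0498, and the call ended without any library but LPS 1 (up to 0.194). Of its 50-base words 0.196% occur in annotated transcripts of other genes, and whether its counts include reads of ribosomal RNA-like sequence was not settled, which bears on its level, share and fold change alike. It carried 38.2% to 48.7% of the summed CPM of the 17 mitochondrial genes in each library. Without it, the other 16 summed to 336, 354 and 350 CPM in Vehicle and 342, 360 and 377 CPM under LPS, which overlap.

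The mitochondrial members called lower were Mars2 and Iars2. Mars2 (methionine; ENSMUSG00000046994, chromosome 1, 55237177 to 55248470) had 15.5, 18.7 and 16.3 CPM in Vehicle and 14, 12 and 11.4 CPM under LPS. Its log2 fold change was −0.43 (SE 0.136, adjusted p = 0.0243). With the length offset it turned to 0.33 (adjusted p = 0.0503), and with the isolation added as a replicate block Mars2 was called higher (adjusted p = 0.0407); its longest annotated transcript has 11294 bases. Iars2 (isoleucine) had 99.5, 95.6 and 103 CPM in Vehicle and 92.4, 79.1 and 79.8 CPM under LPS, a log2 change of −0.25 (SE 0.0913, adjusted p = 0.0469), and 0.14 with the length offset (adjusted p = 0.163). Without 1 library, the call of Mars2 ended in 4 of 6 cases (without Vehicle 2, Vehicle 3, LPS 2 or LPS 3, p up to 0.112) and that of Iars2 in all but the case without LPS 1 (up to 0.186). Of the 50-base words of Iars2, 22.7% are shared with transcripts of other genes, mainly the overlapping gene Rab3gap2, which was itself called lower (−0.46, adjusted p = 0.00788); the part of such reads was not tested.

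The other 11 mitochondrial genes had no call, and 10 of them are described here. Tars2 (threonine) came nearest, at 26.3, 28.9 and 24.2 CPM in Vehicle and 28.9, 33.6 and 36.0 CPM under LPS (log2 fold change 0.31, adjusted p = 0.0535; 0.38 and adjusted p = 0.0257 with the length offset). Wars2 (tryptophan) had 10.3, 13.5 and 10.6 CPM against 9.20, 9.07 and 8.67 CPM (−0.35, adjusted p = 0.0745). Sars2, Aars2, Rars2, Nars2, Vars2, Hars2, Ears2 and Cars2, for serine, alanine, arginine, asparagine, valine, histidine, glutamate and cysteine, had log2 fold changes between −0.03 and 0.24. Their standard errors were 0.102 to 0.205, and adjusted p was 0.215 or more.

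For 14 amino acids the cytosolic and the mitochondrial enzyme are encoded by a gene each, and the log2 ratio of the pair within a library was compared between groups. The ratio was higher under LPS for 9 pairs and lower for 5, with a median difference of 0.18. It did not overlap between groups for 5 pairs with a higher ratio (Hars, Mars, Rars, Sars and Wars over their mitochondrial counterparts) and 1 with a lower ratio (Iars over Iars2). How often such ratios do not overlap for other pairs of genes was not counted. The Hars to Hars2 log2 ratio was 1.88, 1.93 and 2.01 in Vehicle and 2.44, 2.53 and 2.48 under LPS, a difference of 0.54. The neighbouring genes Hars and Hars2 lie head to head with overlapping starts, and 5.95% and 3.37% of their 50-base words are shared. The Mars to Mars2 ratio differed by 0.60. Each of the 6 pairs without overlap had an exact 2-sided permutation p of 0.1, the smallest that 3 libraries against 3 allow, and 0.233 after adjustment over the 14 pairs. For tyrosine and threonine the differences were −0.11 and 0.06, with overlap. With the length offset 9 pairs again had the higher fold change on the cytosolic side, but the order turned for methionine (0.13 for Mars and 0.33 for Mars2) and, the other way, for alanine (0.61 for Aars and 0.21 for Aars2). The difference in log2 fold change shrank from 0.54 to 0.27 for histidine and from 0.48 to 0.20 for tryptophan. It grew from 0.31 to 0.37 for arginine and from 0.37 to 0.72 for serine.

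**Figure D3:**
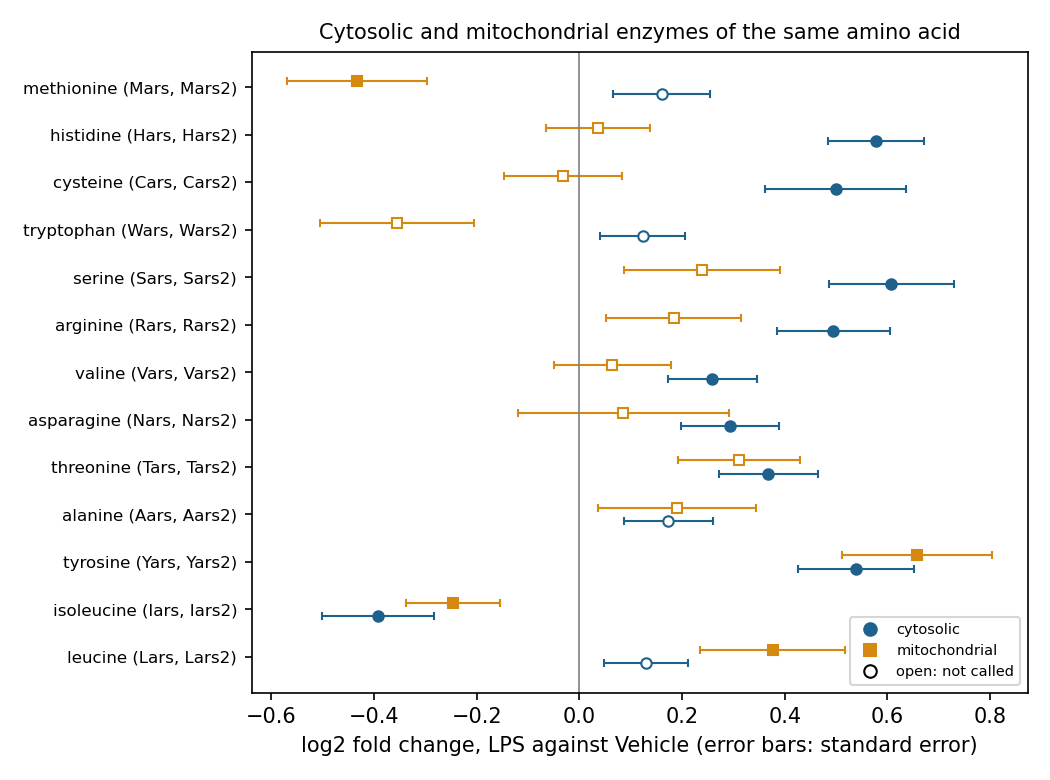
Log2 fold change of the cytosolic (blue circles) and mitochondrial (orange squares) synthetase gene for 13 of the 14 amino acids, LPS against Vehicle, with standard errors; filled symbols were called by edgeR. Pairs are ordered by the difference in their log2 ratio, from methionine at 0.60 to leucine at −0.23, and isoleucine is the pair in which both genes were called lower.

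The size of the fold changes went with transcript length, as it did across the table. Over the 39 members the Pearson correlation between log2 transcript length and log2 fold change was −0.60, across genes that share libraries and are not independent. Over all tested genes the median log2 fold change ran from 0.73 in the bin of the shortest transcripts to −0.68 in that of the longest, over 10 bins. The longest transcripts of the cytosolic members had 1989 to 5750 bases, with a median of 3066, and those of the mitochondrial members 1868 to 11294, with a median of 3614. Once length was modelled, 15 of 20 cytosolic genes were called higher and none lower, against 21.8% and 13.8% of all tested genes (35.6% in either direction), with a median log2 fold change of 0.35. Aars, Lars and Eprs gained a call and Nars and Iars lost theirs. The order of the cytosolic genes changed as well. Sars (0.67) and Aars (0.61) then stood above Kars (0.48), and Tars (0.53) and Vars (0.43) above Gars (0.41), Hars (0.32) and Rars (0.27). Of 17 mitochondrial genes, 4 were called higher and none lower, with Tars2 gaining a call and Pars2 losing it, with a median of 0.29, and 8 higher when the replicate block was added, against 23.9% of all tested genes called higher, 15.6% lower and 39.6% in either direction.

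**Figure D4:**
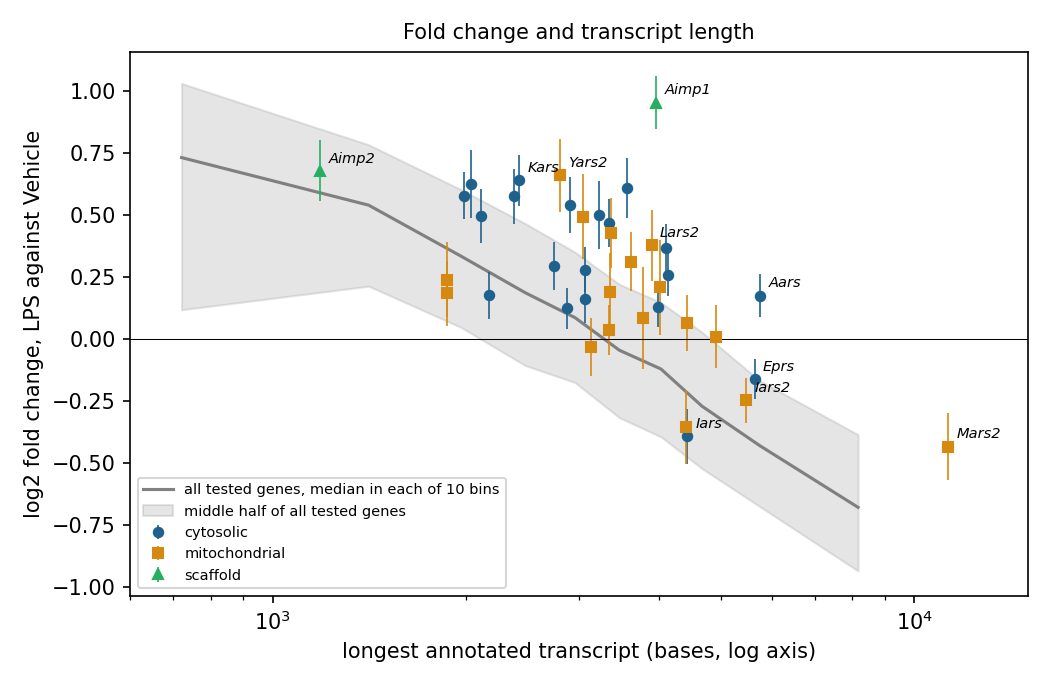
Log2 fold change under LPS (vertical axis, with standard errors) against the length of the longest annotated transcript (log axis) for cytosolic (blue), mitochondrial (orange) and scaffold (green) members. The grey line is the median of all tested genes in 10 length bins and the band their middle 50%. Most cytosolic genes lie above the line at their length, and Aimp1 lies farthest above it.

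Levels between genes can be compared only per length. In TPM, which scales counts by the length of the longest transcript and by library, Gars was the highest in Vehicle at 397 ± 9.36 TPM (SD, n = 3), followed by Kars at 236 ± 8.998, Nars at 233 ± 3.48, Rars at 177 ± 6.92 and Dars at 176 ± 10.4. Within the pairs Kars and Nars and Rars and Dars the means differed by less than the SD. Lars2 followed at 171 ± 13.4 TPM, and the other mitochondrial genes described here lay between 4.32 TPM for Mars2 and 52.6 TPM for Iars2. Cars, at 52.1 ± 3.75 TPM, was the lowest cytosolic member. The order depends on the length used: with the deposited gene length, which joins all exons, Eprs moved from 8th to 20th place and Lars2 from 6th to 15th, while Gars stayed first. On the TPM scale, the mean of 9 cytosolic genes was higher under LPS and that of 11 lower. Among these 11 were Tars, Nars, Qars and Vars, which edgeR called higher. The median log2 ratio of LPS to Vehicle TPM over all tested genes was −0.37. Relative to that median all 13 genes called higher lay above it, as did 18 of the 20 cytosolic and 13 of the 17 mitochondrial genes.

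The promoters of 29 members were matched in RefSeq (GRCm38.p6), from 250 bases before to 50 after the start, giving 31 sequences. They were searched on both strands for the core of the C/EBP-ATF response element, TGATGNAA, to which Atf4 binds with C/EBP partners. It occurred in 5 of 13 promoters of cytosolic genes, in 0 of 15 of mitochondrial genes and in 3.97% of all 32851 promoters in the table. The E-box CACGTG, to which Myc binds, was in 4 of the cytosolic promoters (Aars, Farsb, Iars and Tars) and in that of Ears2, against 7.15% of all. The cAMP response element TGACGTCA was in none of the 31, against 1.79% of all, and the nuclear factor kappa B consensus in that of Iars2, against 4.51% of all. A match describes letters in this window and is not a binding site. The 5 promoters with the response element core are shown since they belong to genes that differ in their response, Gars, Yars and Tars called higher, Aars not called and Iars called lower. Each runs 5′ to 3′ from 130 bases before to 20 bases after the annotated start, and capitals mark the core in either orientation.
Gars (GRCm38.p6, chr6:55037871-55038020, plus strand): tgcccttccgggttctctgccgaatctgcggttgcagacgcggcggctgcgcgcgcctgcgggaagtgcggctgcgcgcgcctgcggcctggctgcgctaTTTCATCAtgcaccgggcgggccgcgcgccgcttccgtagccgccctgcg
Yars (chr4:129189773-129189922, plus strand): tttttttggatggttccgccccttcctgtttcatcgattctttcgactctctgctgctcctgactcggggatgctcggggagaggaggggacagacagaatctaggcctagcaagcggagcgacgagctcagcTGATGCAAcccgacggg
Tars (chr15:11399639-11399788, minus strand): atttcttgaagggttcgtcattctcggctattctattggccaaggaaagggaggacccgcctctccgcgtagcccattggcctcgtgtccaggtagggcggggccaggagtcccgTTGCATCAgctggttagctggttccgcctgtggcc
Aars (chr8:111033712-111033861, plus strand): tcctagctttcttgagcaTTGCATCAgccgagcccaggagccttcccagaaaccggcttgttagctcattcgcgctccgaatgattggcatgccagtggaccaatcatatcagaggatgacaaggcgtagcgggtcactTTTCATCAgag
Iars (chr13:49682000-49682149, plus strand): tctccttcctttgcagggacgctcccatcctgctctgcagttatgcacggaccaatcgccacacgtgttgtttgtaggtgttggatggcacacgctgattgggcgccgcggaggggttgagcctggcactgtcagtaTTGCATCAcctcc

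In Gars the core lay on the opposite strand, from 30 to 23 bases before the start, and in Tars from 15 to 8 bases before it. In Yars and Iars it lay just inside the transcript, at positions 4 to 11 and 8 to 15. Aars carried it at 112 to 105 bases before the start and again at positions 10 to 17. With the length offset Aars was called higher (0.61, adjusted p = 0.00264) and Iars was not called (−0.17, adjusted p = 0.118). In that fit 4 of the 5 genes were called higher and none lower. Among all cytosolic genes it called 15 of 20 higher and none lower, and among all tested genes 21.8% and 13.8%. Of the 50-base words of Aars, 13.8% also occur in transcripts of other genes, mainly Exosc6, which had 0 counts in every library. The part of such reads was not tested.

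Atf4 itself, the transcription factor of the amino acid response, rose from 158, 168 and 184 CPM in Vehicle to 238, 287 and 322 CPM under LPS, with no overlap. Its log2 fold change was 0.73 (SE 0.118, edgeR adjusted p = 0.00155), or 0.48 with the length offset. Ddit3, a stress-induced partner of C/EBP factors, rose from 22 ± 2.12 to 41.5 ± 11.4 CPM (0.92, adjusted p = 0.00357; 0.41 with the length offset). Trib3, an Atf4 target that feeds back on it, rose from 7.36 ± 1.47 to 11.9 ± 1.15 CPM (0.69, adjusted p = 0.00964), and it had no call with the length offset (0.44, adjusted p = 0.0522). Asns, asparagine synthetase, rose from 41.9 ± 5.21 to 57.7 ± 9.22 CPM (0.46, adjusted p = 0.0188), a call that was lost without Vehicle 1, Vehicle 2 or LPS 3 (up to 0.0889) and with the length offset (0.21, adjusted p = 0.162).

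The list of Atf4 and integrated stress response genes as a whole moved both ways. Of 38 tested, 16 were called higher, 8 lower and 14 not called, with a median log2 fold change of 0.26, against 24.9% and 24.4% of all genes. The largest changes were the fall of Aldh1l2, a mitochondrial folate enzyme, by 1.26 and the rises of the stress gene Nupr1 by 1.25 and of Atf3 by 1.04 on the log2 scale. Atf3 was at 1.44 CPM or less on average, a call lost without any 1 library (adjusted p up to 0.113). Atf5, the most abundant gene without a call, had 96.5 ± 9.30 and 119 ± 15.5 CPM. Counts under the length offset were 14 higher and 4 lower, against 21.8% and 13.8% of all tested genes.

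Of the 8 genes of initiation factor 2 alpha, its kinases and their partners, 1 was called higher and 4 lower, against 24.9% and 24.4% of all tested genes, or 2 and 2 with the length offset, against 21.8% and 13.8%. Eif2s1, the factor itself, rose by 0.60 on the log2 scale, from 149 ± 7.66 to 226 ± 34.0 CPM. Eif2ak2, the kinase activated by double-stranded RNA, fell from 39.4 ± 2.80 to 19.9 ± 7.64 CPM (−0.99, adjusted p = 0.00778), and Impact, an inhibitor of Gcn2 activation, from 80.7 ± 4.38 to 53.7 ± 6.91 CPM (−0.59, adjusted p = 0.00236). The others called lower were Eif2ak3 and Gcn1l1. The call of Eif2ak3, a kinase of the endoplasmic reticulum whose groups overlapped, ended without any library but LPS 1 (adjusted p up to 0.154) and with the length offset (−0.16, adjusted p = 0.272). Gcn1l1, which relays uncharged tRNA to Gcn2, was called lower at −0.43 and higher at 0.23 with the length offset (adjusted p = 0.0289). Eif2ak4, Gcn2 itself, had 31.1, 35.9 and 36.6 CPM in Vehicle and 31.0, 26.1 and 29.0 CPM under LPS and was not called (−0.26, adjusted p = 0.0731). Ppp1r15b, a phosphatase subunit and the most abundant gene without a call, had 75.9 ± 3.30 and 67.0 ± 5.63 CPM.

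**Figure D5:**
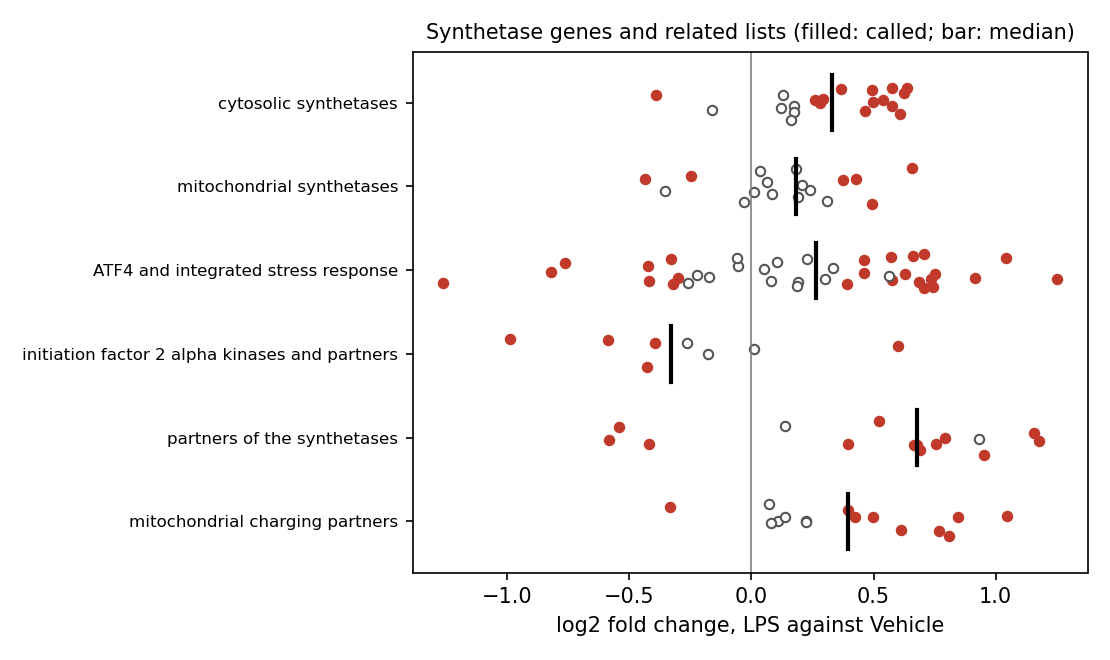
Log2 fold change under LPS (horizontal axis) of each tested gene among the cytosolic and mitochondrial synthetases and 4 related lists; filled points were called by edgeR and bars are medians. The cytosolic synthetases lie mostly between 0.12 and 0.64, while the Atf4 list spreads from −1.26 to 1.25.

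Partners of the cytosolic synthetases formed the third list. Of 15 tested, among them Aimp1 and Aimp2, 10 were called higher and 3 lower, against 24.9% and 24.4% of all tested genes. With the length offset the counts were 6 and 1, against 21.8% and 13.8%, and the median log2 fold change was 0.40 instead of 0.68. The subunits of elongation factor 1, which takes over charged tRNA and binds valyl-tRNA synthetase, included the largest changes without that offset. Eef1d rose from 174, 176 and 193 to 299, 423 and 505 CPM (1.18, adjusted p = 0.00144) and Eef1b2 from 366 ± 25.4 to 816 ± 208 CPM (1.16). The 3 genes called lower were Xpot, the tRNA exporter of the nucleus (−0.42, but 0.04 with the length offset), Sepsecs, of selenocysteine synthesis on tRNA (−0.58, and −0.23 without a call under the offset, adjusted p = 0.174), and Tarsl2. Tarsl2 encodes a further threonyl-tRNA synthetase outside the naming rule, and it fell from 9.15 ± 1.12 to 6.25 ± 1.46 CPM (−0.54, adjusted p = 0.0431) where Tars rose; its call ended without any library but LPS 1 (up to 0.153). Trnt1, the enzyme that adds CCA ends to tRNA and the most abundant gene without a call, had 51.8 ± 2.07 and 57.0 ± 1.07 CPM.

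Genes that work beside the mitochondrial enzymes were called higher in 8 of 15 cases and lower in 1, with a median log2 fold change of 0.39, against 24.9% and 24.4% of all tested genes. The peptidyl-tRNA hydrolase gene Ptrh2 rose from 18.8 ± 1.01 to 38.9 ± 7.65 CPM (1.05, adjusted p = 0.00144). The elongation factor gene Tsfm rose by 0.84 and Hsd17b10, a subunit of mitochondrial RNase P, by 0.81 on the log2 scale. Gatc, of the amidotransferase that makes glutaminyl-tRNA in mitochondria, fell from 19.6 ± 1.59 to 15.6 ± 0.906 CPM (−0.33, adjusted p = 0.0396), a call that was lost without any library but LPS 1 (up to 0.150). Gfm1, an elongation factor and the most abundant gene without a call, had 59.2 ± 2.17 and 62.2 ± 6.27 CPM. The longest transcripts of this list had a median of 2366 bases, shorter than those of the mitochondrial enzymes. Under the length offset 8 were called higher, against 21.8% of all tested genes, with a median log2 fold change of 0.32. The values of single genes in this list are those without the offset.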

How the data were processed

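The submitters' processing notes name HISAT2 and the build GRCm38 (mm10). How reads were counted, whether by strand, and with which annotation is not stated. The authors deposited raw counts per gene for 6 libraries, with a gene length that equals the joined exons of GENCODE M21 for 36 of the 39 members. Where genes overlap, their reads may therefore be mixed. The columns without LPS in their name were taken as Vehicle by elimination. Library totals and the floors they give are stated in the text.

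Counts were tested in edgeR 4.0.16 (R 4.3.3) with TMM, filterByExpr by group, the 2-sided quasi-likelihood F-test and Benjamini-Hochberg adjustment over all 14508 tested genes; nothing was adjusted over the members alone. SE is that of the fitted log2 fold change, and its 95% intervals are normal ones. Per the labels, libraries with the same number come from 1 isolation, so the numbers pair them; their deviations from the means of their groups correlated by 0.0958, −0.0450 and 0.206. The fit without the pairing is the main one. Alternatives were DESeq2 (1.42.0) and its size factors, library sizes alone, other filters, the replicate block, per-library spline offsets (5 degrees of freedom) for the longest GENCODE transcript or the deposited length, and leaving out each library or isolation. The fits were run on simulated counts with known fold changes, a shared dispersion and no trend with transcript length or isolation. That simulation cannot show how the length offset or the replicate block work where such trends exist. The members and lists were chosen with earlier results of these data known. All members are named but 1, which is not reported here on its own; of each list, the 3 called genes with the largest change, the most abundant gene without a call and a fixed panel, besides genes named where a count is 5 or fewer or a setting turned the direction.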

Additional observations from a re-analysis of the deposited data

How the results depend on the processing

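Of the 22 members called, 11 kept their call without each of the 6 libraries in turn, 8 of them cytosolic. The like share of all called genes was not counted. Calls over all tested genes numbered 7150 with all libraries, and 5014 (without Vehicle 2) to 8825 (without LPS 1) with 1 left out. DESeq2 size factors, the stricter filter of 1 CPM in 3 libraries and the replicate block changed the call of no member; in edgeR the replicate block called 13 cytosolic genes higher and 1 lower. Library sizes alone called 10 cytosolic genes higher, and 2 mitochondrial genes higher and 3 lower. No filter and DESeq2 each called 1 mitochondrial gene lower, and 0 of the mitochondrial charging partners lower.

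The length offset turned the direction of 3 members. The log2 fold change of Eprs was 0.26 with the transcript length, 0.55 with the deposited length and 0.25 with the transcript length and replicate block. For Iars2 these values were 0.14, 0.16 and 0.14, and for Mars2 0.33, 0.085 and 0.33. With the transcript length offset, 0 cytosolic and 0 mitochondrial genes were called lower, and of all genes 2001, or 2339 with the deposited length and 2269 with the replicate block added. That last fit called 8 mitochondrial genes higher, 0 cytosolic and 0 mitochondrial genes lower, and the deposited length 0 mitochondrial genes lower. The Atf4 list had 4 lower with the transcript length offset, with or without the replicate block. The initiation factor 2 list had 2 higher with either length and 3 with the block, and 2 lower in all 3 fits; the partners had 6 higher with the transcript length, with or without the block, and 1 lower in all 3. The cause was not tested.

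Without single libraries or isolations, the cytosolic genes called higher numbered 0 to 16 and lower 0 to 1, and the mitochondrial 0 to 6 and 0 to 3. All genes numbered 8 to 4362 higher and 0 to 4463 lower. The Atf4 list had 0 to 19 higher and 0 to 9 lower, the initiation factor 2 list 0 to 1 and 0 to 6, the partners 0 to 10 and 0 to 3, and the mitochondrial partners 0 to 8 and 0 to 1. The lowest counts came from edgeR without isolation 2, with 0 members called (8 cytosolic, 1 mitochondrial and 2 scaffold genes at an unadjusted p below 0.05). This case was refitted after the data were seen. DESeq2 called 5 cytosolic genes higher, 0 lower, and 0 mitochondrial genes in either direction, with 1506 and 1220 of all genes, 7 and 2 of the Atf4 list, 2 lower of the initiation factor 2 list, 0 lower of the partners, and 4 and 0 of the mitochondrial partners. edgeR with the replicate block called 9 cytosolic genes higher and 0 lower, 1 and 0 mitochondrial, 2322 and 2296 of all, 5 lower of the Atf4 list, 1 lower of the partners and 4 and 0 of the mitochondrial partners. The mitochondrial genes described here had as few as 80 counts in a library (Pars2, called higher at a log2 fold change of 0.49 in the main fit). Smaller changes in such genes may go without a call, which was not tested.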
